A study of Mus musculus with 14 samples.

Results

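The genes for the proteins of the cytosolic ribosome were followed in the striatum of R6/2 and wild-type mice. They were taken as all probe sets of the array with a single gene symbol made of Rpl or Rps and a digit, without the Rps6k kinases, and for each gene the probe set with the greatest mean signal in the 14 arrays was kept. The rule found 46 genes, 24 named as large subunit and 22 as small subunit proteins, with 97 probe sets among the 22626 tested. The R6/2 transgene holds exon 1 of human HTT with an expanded CAG repeat under the human HTT promoter, which is active in many cell types. Both genotypes were on a CBAxC57BL/6 background, were 6 weeks old, and served as controls for drug studies, having had a saline injection 30 to 60 minutes before sacrifice. The array titles form 2 cohorts. Cohort M.C held 4 R6/2 and 4 wild-type arrays, numbered 1 to 4 in each genotype, and cohort Mith held 3 of each, numbered 5 to 7. What M.C and Mith stand for is not explained, and in what the cohorts differ is not stated. It is not stated that each array came from its own mouse, so p-values measure the spread between these arrays, and the number of arrays limits the precision.

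The cytosolic ribosome is built of a large and a small subunit, each a set of proteins on ribosomal RNA, and most of these proteins are needed in equal numbers. Their messenger RNAs are among the most abundant of a cell, and many of them carry a run of pyrimidines (C and T) at the very 5′ end, the TOP motif, through which the mTOR pathway and Larp1 set their translation. In neurons the ribosome supplies proteins to cell bodies, dendrites and synapses, and in Huntington disease models protein synthesis has been studied as a process that mutant huntingtin may touch.

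The start sites of the genes are shown because a pyrimidine run there is known from many genes of the family, though not all members here had one. The windows are 30 bases long, 15 before the start site and 15 from it on, taken from RefSeq promoter entries on GRCm38.p6 and written 5′ to 3′ along the gene's own strand. Capitals mark runs of at least 5 C or T letters. The first 7 are the members with a C as first base followed by at least 4 C or T letters.

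Rpl14, chr9:120571502-120571531, plus strand: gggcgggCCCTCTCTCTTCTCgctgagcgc
Rpl35, chr2:39005117-39005146, minus strand: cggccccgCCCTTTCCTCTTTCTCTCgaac
Rpl38, chr11:114668565-114668594, plus strand: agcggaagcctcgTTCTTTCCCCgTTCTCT
Rps6, chr4:86857353-86857382, minus strand: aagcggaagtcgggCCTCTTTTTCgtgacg
Rps10, chr17:27635230-27635259, minus strand: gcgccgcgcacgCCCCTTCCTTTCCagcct
Rps18, chr17:33955651-33955680, minus strand: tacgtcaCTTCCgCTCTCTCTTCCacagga
Rps27, chr3:90213634-90213663, minus strand: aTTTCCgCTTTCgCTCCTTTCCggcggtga
Rpl22l1, chr3:28805493-28805522, plus strand: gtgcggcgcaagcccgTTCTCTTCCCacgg
Rps25, chr9:44407699-44407728, plus strand: TTTTTCCgacatcttagcgaggctgctgtg
Rpl11, chr4:136053379-136053408, minus strand: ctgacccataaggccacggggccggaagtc

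The last 3 are members on which the results below turn, with a run just after the start (Rpl22l1), before it (Rps25) or nowhere in the window (Rpl11). Of the 46 members, 39 matched an entry, 7 of them with more than 1, and a gene was counted when any entry held the pattern. A C at the annotated start followed by at least 4 C or T letters was found in 7 of 39 members (17.9%), in 0 of 65 mitochondrial ribosomal protein genes and in 3.01% of the 27025 genes in the table. An unbroken run of at least 7 C or T letters lay in the window of 23 members (59%), of 10 mitochondrial ribosomal protein genes (15.4%) and of 21.3% of all genes. On the opposite strand the same run was found in 7.69% of members and 23.1% of all genes. These are counts of letters in annotated windows, chosen after the sequences had been seen, and an annotated start can lie some bases from the start a cell uses.

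The members were measured on a part of the ribosome only. Of a list of 79 cytosolic ribosome genes, 39 were members. A further 26, Rpl3, Rpl5 and Rpl10 among them, had only probe sets that carry several gene symbols. Rplp0, Rplp2, Rpsa and Fau have names outside the rule, and 10, Rps27a among them, had no named probe set here. The 7 members outside the list are the paralogs Rpl22l1, Rpl39l, Rpl3l, Rps27l and Rps4l, the Rpl7-like gene Rpl7l1, and Rps15a-ps6, whose name is that of a pseudogene. Ribosomal protein genes have many processed copies in the genome, so a probe set can read more than its own transcript. The mean log2 signals of the members ran from 3.65 (Rps15a-ps6) to 12.8 (Rps29), and 32 of 46 lay above the 90th percentile of all probe sets. A signal depends on the probes as well as on the RNA, so levels are not compared between genes.

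The striatum label was set beside marker lists, whose levels are given per list and are not compared with each other. The 6 measured markers of striatal projection neurons had mean log2 levels of 9.71 to 10.9 per array, and 5 of them were called lower in R6/2 over both cohorts (median difference -0.71). The 2 measured markers of cortical glutamatergic neurons averaged 3.47 to 3.98. The 3 markers of choroid plexus, a tissue next to the striatum, averaged 6.96 to 8.93 per array, with Ttr at 8.43 to 13.4 over the wild-type arrays, and none of the 3 was called between the genotypes or the cohorts. Array R6/2 4 had the lowest mean rank correlation with the other arrays of its cohort (0.981), and results that rest on it are given with and without it. In bulk RNA, fewer cells of a type and less RNA per cell cannot be told apart.

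Over both cohorts no ribosomal protein gene was called different between R6/2 and wild-type striatum, and most estimates lay slightly above 0. Most also did with the Gapdh control of RNA integrity as a covariate, but not with the Actb control. None of 46 members passed an adjusted p of 0.05 (limma, cohort as a term, Benjamini-Hochberg over all 22626 probe sets), where 2.55% of all probe sets passed. At an unadjusted p under 0.05 there was 1 member, Rps25, against 15.2% of all probe sets. The log2 differences, R6/2 minus wild-type, ran from -0.02 to 0.36 with a median of 0.12, beside 0.01 over all probe sets and -0.02 over the 921 probe sets with a mean log2 signal above 10. Of the 46 estimates 41 lay above 0, as did 54.8% of all probe sets and 45% of those above a signal of 10. With the Actb control described below as a covariate, 23 of 46 lay above 0 and the median was -0.0042. That control was itself higher on average in R6/2 in each cohort, so this fit cannot tell it apart from genotype. With the Gapdh control instead, 40 lay above 0 and the median was 0.10. Without array wild-type 6 and with no such covariate the median was 0.06. The 24 large subunit genes had a median of 0.11 and the 22 small subunit genes 0.12, so the subunits gave like values. The 95% confidence intervals held 0 for 45 members, and their upper bounds had a median of 0.34 and passed 0.5 for 3 members.

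**Figure D1:**
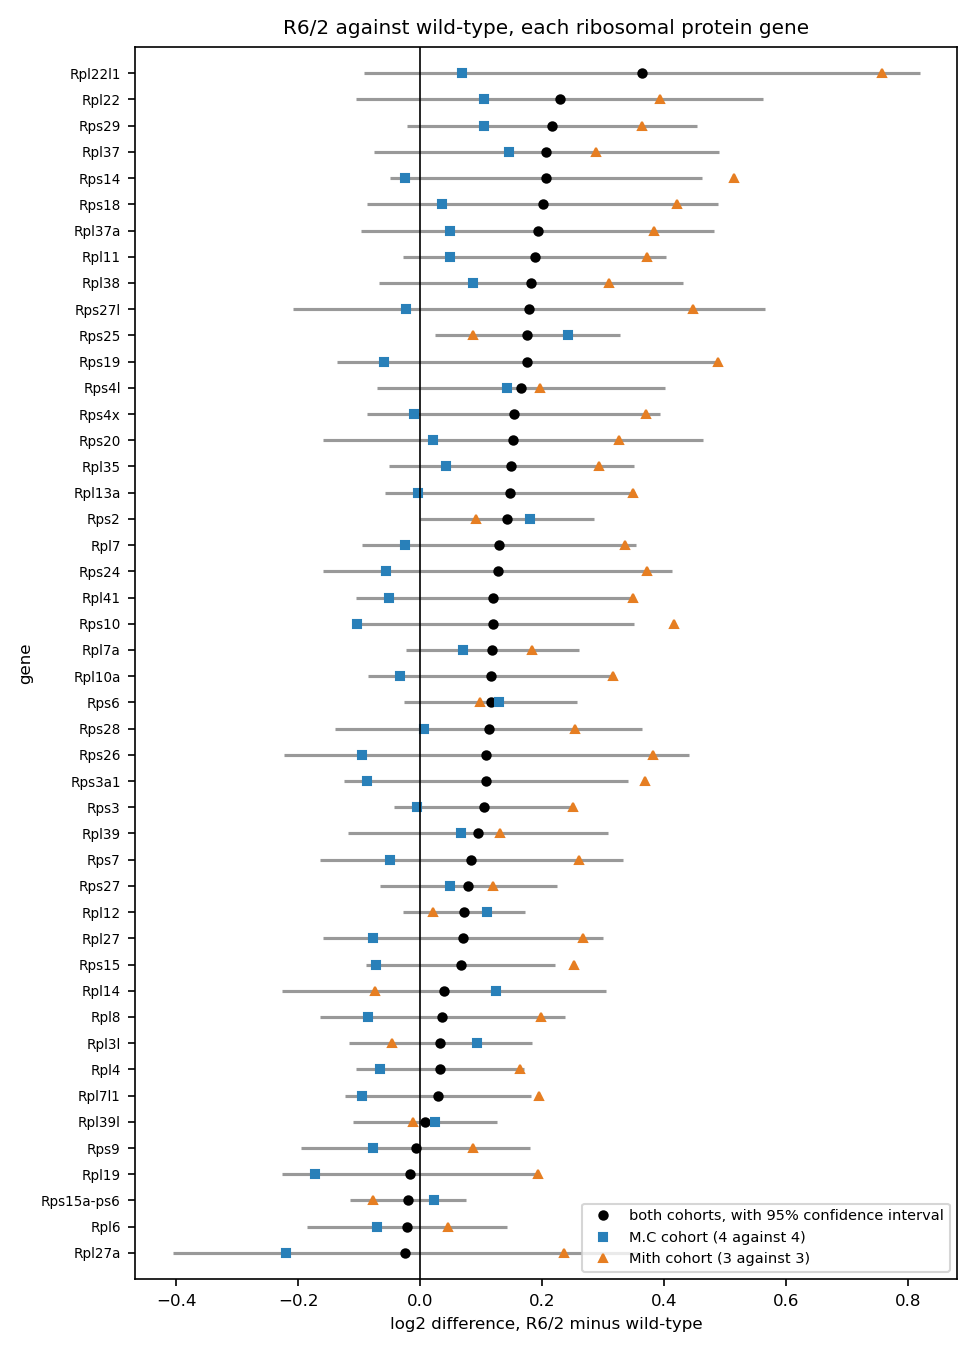
Log2 difference, R6/2 minus wild-type, for each of the 46 ribosomal protein genes: black points with 95% confidence intervals over both cohorts, blue squares for M.C (4 against 4 arrays) and orange triangles for Mith (3 against 3). The Mith estimates lie to the right of 0 for 42 genes, and the M.C estimates for 23.

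The spread between arrays of a group was wide for these genes. The median standard deviation within a group was 0.21 for the members, 0.12 over all probe sets and 0.17 over the probe sets above a signal of 10. The standard error of the difference had a median of 0.107 for the members and 0.0662 over all probe sets. At equal size, a difference had thus a larger p in a typical member than in a typical probe set.

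Among the large subunit genes, Rpl22l1 had the highest estimate. Rpl22l1 is a paralog of Rpl22 and can stand in for it in the ribosome. In M.C its log2 signals were 9.63, 9.60, 9.76 and 9.37 in R6/2 and 9.59, 9.79, 9.26 and 9.46 in wild-type. In Mith they were 11.44, 10.72 and 11.62 in R6/2 and 11.49, 9.76 and 10.25 in wild-type. The genotypes overlapped in both cohorts, and array wild-type 5 was as high as the upper R6/2 arrays. The difference was 0.36 ± 0.22 (SE) with a limma adjusted p of 0.462, from 0.07 ± 0.11 in M.C and 0.76 ± 0.37 in Mith. Rpl22 itself gave 0.23 ± 0.16 (limma adjusted p = 0.542), from 8.88, 8.93, 8.88 and 9.0 in the M.C R6/2 arrays, against 8.88, 8.88, 8.74 and 8.77 in wild-type, and from 9.64, 9.18 and 9.74 in the Mith R6/2 arrays against 9.99, 8.62 and 8.77. Its highest array was wild-type 5, and the genotypes overlapped in both cohorts, in M.C through R6/2 1 at 8.878 and wild-type 1 at 8.882. The other single-symbol probe set of Rpl22 (mean signal 8.02) gave 0.05 ± 0.05.

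Rpl11, which with Rpl5 binds Mdm2 and ties ribosome assembly to p53, was estimated at 0.19 ± 0.10 (limma adjusted p = 0.409). Its M.C signals were 10.61, 10.77, 10.61 and 10.31 in R6/2 and 10.56, 10.50, 10.50 and 10.54 in wild-type, and its Mith signals were 11.45, 11.08 and 11.66 against 11.32, 10.77 and 10.99. The groups overlapped in each cohort, through R6/2 4 in M.C and wild-type 5 in Mith. Rpl10a, the protein that is tagged to purify ribosomes from chosen cell types, gave 0.12 ± 0.10, and Rpl37 gave 0.21 ± 0.13. Rpl7 gave 0.13 ± 0.11 and the Rpl7-like gene Rpl7l1 0.03 ± 0.07. Rpl39 gave 0.10 ± 0.10, and its paralog Rpl39l, best known from testis, gave 0.01 ± 0.06 at signals of 4.19 to 4.48. Rpl3l, the muscle form of Rpl3, gave 0.03 ± 0.07 at signals of 5.20 to 5.67. These signals are below those of most probe sets, and how much RNA of these paralogs was present cannot be read from them. Rpl14 gave 0.04 ± 0.13.

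The lowest estimates over both cohorts were close to 0. They were those of Rpl27a (-0.02 ± 0.18), Rpl6 (-0.02 ± 0.08), Rps15a-ps6 (-0.02 ± 0.05), Rpl19 (-0.02 ± 0.10) and Rps9 (-0.01 ± 0.09). Rpl27a had the widest spread of these, since R6/2 2 stood at 6.11 and R6/2 4 at 7.85 while the 4 M.C wild-type arrays lay between 7.10 and 7.25. For Rpl27a the M.C estimate was -0.22 ± 0.27, the lowest of any member there, followed by Rpl19 at -0.17 ± 0.10.

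Among the small subunit genes, Rps25 came closest to a call. Rps25 is known from initiation at viral internal ribosome entry sites and from translation of expanded repeats that lacks a start codon. Its M.C signals were 7.27, 7.31, 7.34 and 6.90 in R6/2 and 6.98, 7.06, 6.91 and 6.89 in wild-type. Its Mith signals were 6.95, 7.05 and 7.10 in R6/2 and 7.08, 6.78 and 6.98 in wild-type. In M.C the first 3 R6/2 arrays were above all wild-type arrays and R6/2 4 was among the lowest, and in Mith the genotypes overlapped. The difference was 0.18 ± 0.07, with a 95% confidence interval of 0.02 to 0.33, an unadjusted p of 0.0257 and an adjusted p of 0.241 by limma. In M.C it was 0.24 ± 0.10, and without R6/2 4 it was 0.34 ± 0.06 there, with a limma adjusted p of 0.0132. This probe set has a mean signal of 7.04, and a brighter probe set that carries Rps25 beside other symbols (mean 10.6) gave -0.06 in M.C and 0.39 in Mith. Over both cohorts Rps25 was called only under array weights, which count arrays that differ from the rest for less (0.25 ± 0.06, limma adjusted p = 0.0215). With the Actb control described below as a covariate it was at 0.07 ± 0.09.

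Rps14, a protein of the small subunit's platform, was estimated at 0.21 ± 0.12 (limma adjusted p = 0.456). In M.C its signals were 11.95, 11.67, 11.84 and 11.52 in R6/2 and 12.00, 11.63, 11.72 and 11.73 in wild-type, and the difference was -0.03 ± 0.11. In Mith they were 12.36, 12.36 and 12.62 against 12.25, 11.50 and 12.06, every R6/2 array above every wild-type array, with a difference of 0.52 ± 0.17 and a limma adjusted p of 0.442. Rps6, the substrate of the S6 kinases, gave 0.12 ± 0.07, with like values in M.C (0.13) and Mith (0.10). This probe set has a mean signal of 7.21, and a brighter one that lists Rps6 beside another symbol (mean 12.4) gave 0.0053 in M.C and 0.21 in Mith. Rps2 gave 0.14 ± 0.07, from 0.18 in M.C and 0.09 in Mith. Rps19, the gene first tied to Diamond-Blackfan anaemia, gave 0.18 ± 0.15, from -0.06 in M.C and 0.49 in Mith. Rps3, which also has a part in DNA repair, gave 0.10 ± 0.07, from -0.01 and 0.25. Rps29 gave 0.22 ± 0.11, Rps18 0.20 ± 0.14, Rps20 0.15 ± 0.15 and Rps10 0.12 ± 0.11.

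Rps27l, a p53-responsive paralog of Rps27, was highest in the same Mith arrays as Rpl22l1, namely R6/2 5, R6/2 7 and wild-type 5. These were also the highest Mith arrays for other members, Rpl22 and Rps20 among them. In M.C the highest array was R6/2 2 for Rps27l and wild-type 2 for Rpl22l1. The Mith signals of Rps27l were 8.70, 8.03 and 8.88 in R6/2 and 8.94, 7.55 and 7.79 in wild-type. Its M.C signals were 7.54, 7.82, 7.56 and 7.28 in R6/2 and 7.67, 7.73, 7.40 and 7.48 in wild-type. Its difference was 0.18 ± 0.18 and that of Rps27 was 0.08 ± 0.07. Neither was called.

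Within M.C as many estimates lay above 0 as below. None of 46 was called (2.47% of all probe sets were) and 1 passed an unadjusted p of 0.05, while 23 estimates lay above 0 and 23 below (53.1% of all probe sets lay above), with a median of 0.0011 and a range of -0.22 to 0.24. Of the 29 members with a mean signal above 10, 10 lay above 0 (median -0.03), and of the 17 others 13 did (median 0.07). After quantile normalization the M.C median was 0.10. In no member did the M.C arrays of one genotype all lie above those of the other, against 4.84% of all probe sets with every R6/2 array above and 6.33% with every R6/2 array below.

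Within Mith most estimates lay above 0, and none passed the adjusted test. The median was 0.26 with a range of -0.08 to 0.76, beside 0.0011 over all probe sets, and 42 of 46 estimates were above 0, as were 50.4% of all probe sets. With 3 arrays against 3, limma called 0% of all probe sets, so a lack of calls says little there. A fit with 4 group means, which shares the spread over all 14 arrays, called 5 probe sets in Mith and no member. At an unadjusted p under 0.05 there were 8 members, Rpl11, Rpl41, Rps3, Rps3a1, Rps10, Rps14, Rps15 and Rps19, all higher in R6/2, against 8.87% of all probe sets. The lowest adjusted p was 0.430 (Rps10, 0.42 ± 0.13). The 29 members with a mean signal above 10 all had estimates above 0 (median 0.34, beside 0.04 over all probe sets that bright), and the 17 others had 13 above 0 (median 0.12). Every R6/2 array lay above every wild-type array in Rpl4 and Rps14, where 6.61% of all probe sets did so, and below in Rps15a-ps6, where 6.34% did. In the same arrays the 4 thalamic markers had a median of -0.63, R6/2 minus wild-type, and the 8 measured markers of mature oligodendrocytes -0.42, none of them called, and their part in the members' estimates was not tested.

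**Figure D2:**
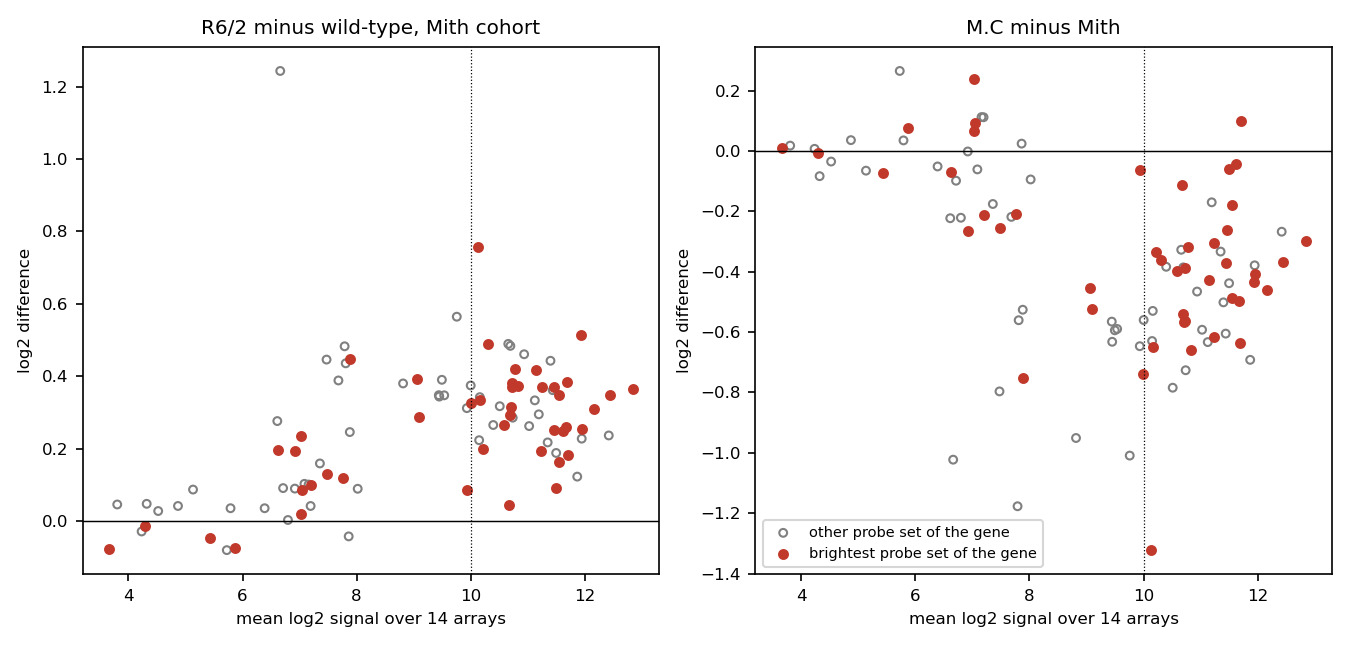
Each of the 97 single-symbol probe sets by its mean log2 signal over the 14 arrays (horizontal) and its log2 difference (vertical), R6/2 minus wild-type in Mith on the left and M.C minus Mith on the right. Filled points are the probe set chosen for each gene, open points the others, and the dotted line is a signal of 10. All 29 chosen probe sets right of that line lie above 0 in the left panel, and 28 of 29 lie below 0 in the right panel.

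The cohorts were also compared in 1 fit. Of the members, 19 had estimates above 0 in both cohorts, 23 below in M.C and above in Mith, 4 the other way, and 0 below in both. The interaction, the Mith difference minus the M.C difference, had a median of 0.29 over the members, of which 38 lay above 0 (50.3% of all probe sets), 0.0013 over all probe sets and 0.17 over those with a signal above 10. limma called none of the members and 0% of all probe sets, and the lowest adjusted p was 0.399 (Rps10, 0.52 ± 0.19). At an unadjusted p under 0.05 there were 5 members, Rpl7l1, Rps3a1, Rps10, Rps14 and Rps15, where 9.78% of all probe sets passed. A difference of the genotype effect between cohorts was thus not shown for any member.

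In some arrays most members lay on the same side of their cohort mean. They were above it for 45 of 46 members in R6/2 7 and for 4 in wild-type 6, but for 23 in R6/2 1 and 21 in wild-type 4. In R6/2 4 the members with a mean signal above 10 stood at -0.26 on average and the others at -0.02. Each array's level was taken as the mean over the members of the log2 signal minus the member's mean in its cohort. In Mith the R6/2 arrays stood at 0.19, -0.06 and 0.26 and the wild-type arrays at 0.19, -0.35 and -0.22. In M.C the R6/2 arrays stood at 0.0080, 0.10, 0.08 and -0.17 and the wild-type arrays at 0.04, 0.06, -0.11 and -0.01. The genotypes overlapped in both cohorts, and wild-type 5 stood level with R6/2 5. Large and small subunit genes stood at -0.33 and -0.37 in wild-type 6 and at 0.25 and 0.27 in R6/2 7. The small subunit genes were further from 0 in R6/2 4 (-0.11 and -0.23) and in R6/2 2 (0.06 and 0.15).

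Single arrays were the extreme for many members at once. Wild-type 6 was the lowest Mith array for 29 of 46 members (63.0%) and for 18.1% of all probe sets. R6/2 7 was the highest Mith array for 21 members (45.7%), against 17.4%. R6/2 4 was the lowest M.C array for 27 members (58.7%), against 28.3%, and R6/2 2 the highest for 18 (39.1%), against 19.4%. Leaving out wild-type 6 took the median difference in Mith from 0.26 to 0.15 and that over both cohorts from 0.12 to 0.06. Leaving out wild-type 5 took the Mith median to 0.44. Over both cohorts, leaving out R6/2 7 gave 0.08, wild-type 7 gave 0.08 and R6/2 4 gave 0.17, and no member was called in any of these fits.

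**Figure D3:**
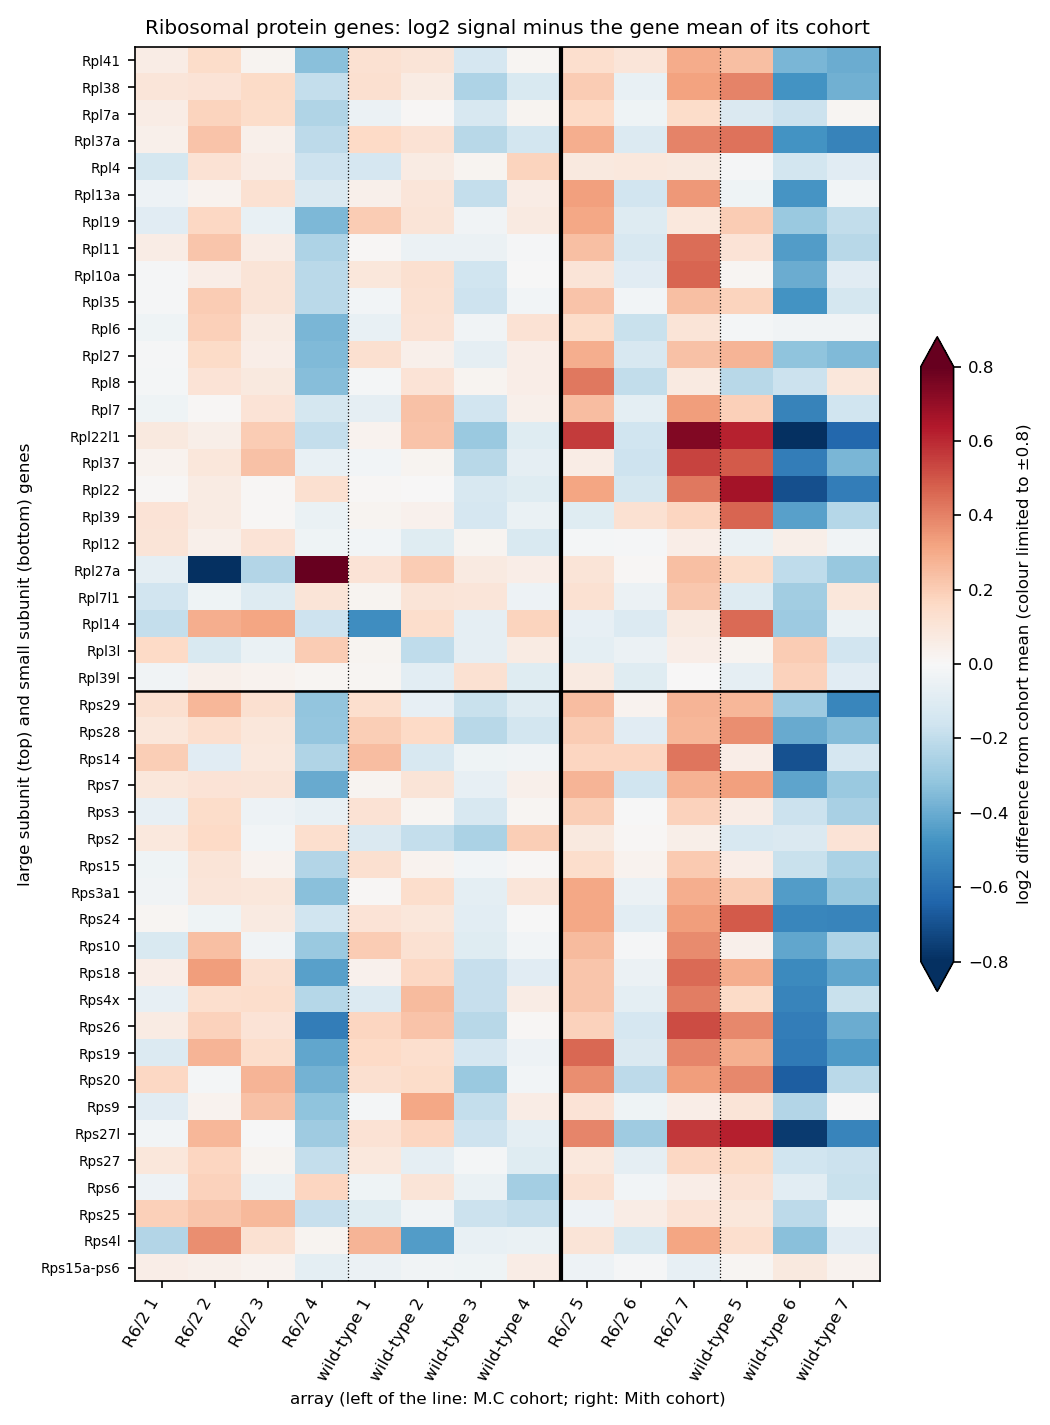
Log2 signal of each ribosomal protein gene (vertical, large subunit on top and small subunit below, brightest first) in each of the 14 arrays (horizontal), minus the gene's mean in its cohort. Red is above and blue below that mean. Whole columns share a colour, such as wild-type 6 (blue, lowest for 29 genes) and R6/2 7 (red, highest for 21).

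A measure of RNA integrity moved with these levels in part of the arrays. On this array the Actb control has probe sets near the 3′ and the 5′ end of the transcript, and a larger 3′ minus 5′ difference stands for fewer full-length copies. It was 0.642, 0.852, 0.539 and 0.277 in the M.C R6/2 arrays and 0.403, 0.199, 0.330 and 0.364 in the M.C wild-type arrays. In Mith it was 0.567, 0.640 and 0.741 in R6/2 and 0.613, 0.476 and 0.227 in wild-type. In each cohort the R6/2 array of highest value (R6/2 2 and R6/2 7) was also the one with the highest level of the members, and in M.C R6/2 4 was the lowest R6/2 array on both measures. Wild-type 2 went the other way, lowest of the M.C arrays on Actb and highest of the M.C wild-type arrays on the members, while the other 3 M.C wild-type arrays had the same order on both measures. The order also broke in Mith. R6/2 6 was above R6/2 5 on Actb (0.640 and 0.567) and below it on the members (-0.06 and 0.19). Wild-type 7 was below wild-type 6 on Actb (0.227 and 0.476) and above it on the members (-0.22 and -0.35). With this difference as a covariate, the median of the members' differences was -0.0042, with 23 of 46 above 0, none called by limma and a range of -0.18 to 0.33. The standard errors were wider in that fit (median 0.125). The Actb difference itself averaged 0.577 in R6/2 and 0.324 in wild-type in M.C, and 0.649 and 0.439 in Mith. It thus went partly with genotype, and that fit cannot tell RNA integrity and genotype apart. The Gapdh control ran from 0.102 to 0.570 in M.C R6/2 and from -0.0041 to 0.129 in M.C wild-type, and from -0.0224 to 0.133 and -0.0686 to 0.0563 in Mith. With Gapdh as the covariate the median was 0.10 with 40 above 0. The 18S ribosomal RNA control ranged from 7.61 to 10.5 in M.C R6/2 and 9.59 to 11.5 in M.C wild-type, and its part in the members' values was not tested.

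**Figure D4:**
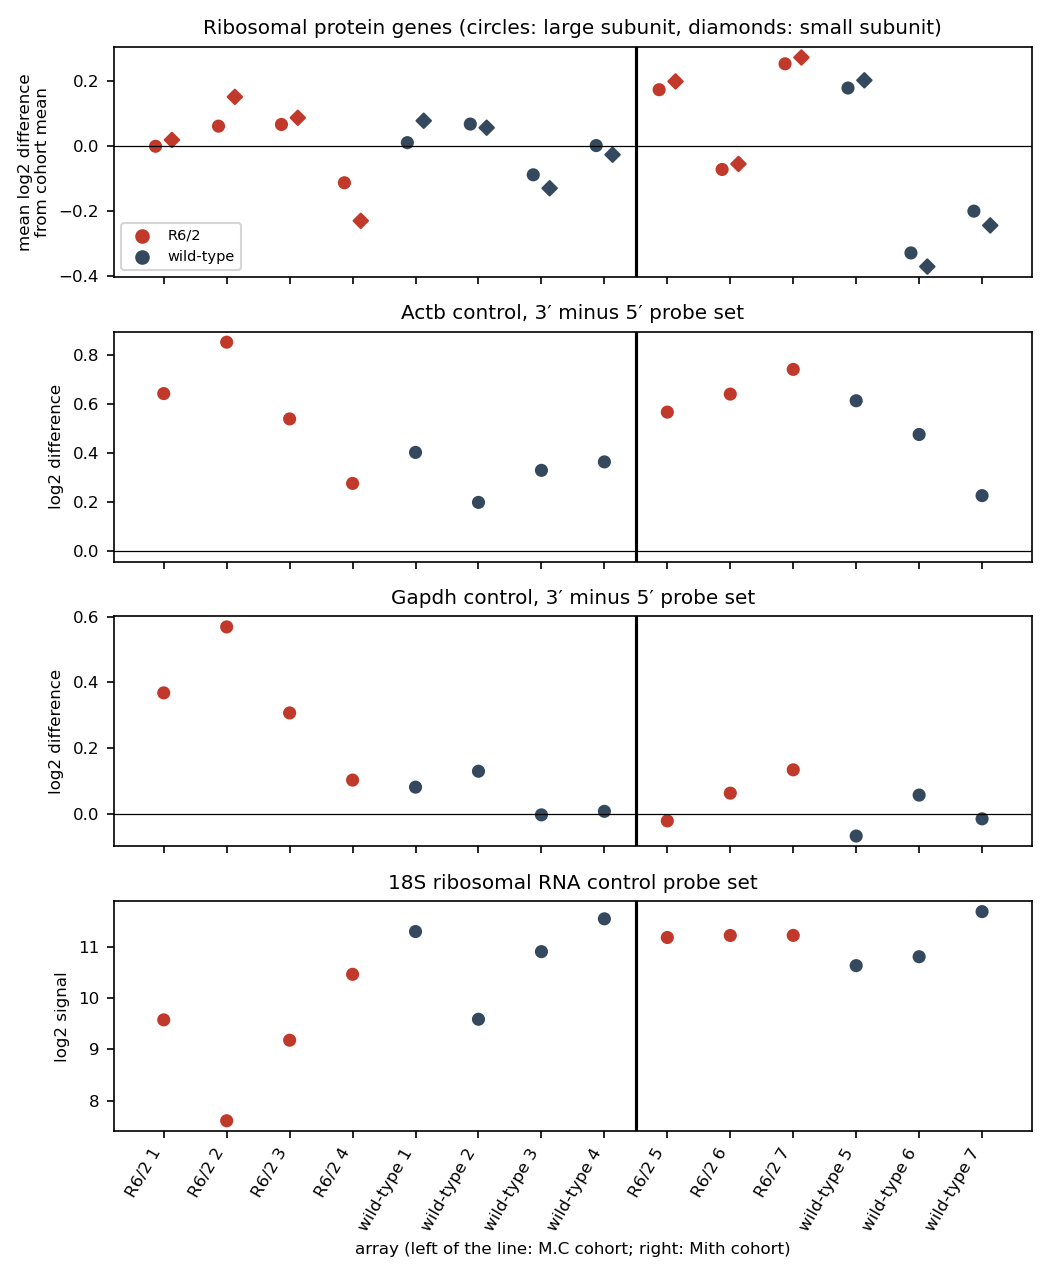
By array, from top to bottom: mean log2 difference of the large subunit (circles) and small subunit (diamonds) genes from their cohort mean, the Actb and the Gapdh 3′ minus 5′ control difference, and the log2 signal of the 18S control. R6/2 arrays are red and wild-type arrays dark. R6/2 2 and R6/2 7, at 0.852 and 0.741 the highest Actb differences of their cohorts, are also the highest of their cohorts in the mean over all members (0.10 and 0.26), though not for the large subunit genes of M.C alone.

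More members were called between the cohorts than between the genotypes. Of 46 members 29 (63%) were called between M.C and Mith by limma with genotype as a term, where 32.3% of all probe sets were. Lower in M.C were 28, against 17% of all probe sets and 50.4% of those with a signal above 10. Of the 29 members above that signal, 21 (72.4%) were called lower. The median of M.C minus Mith was -0.35 over the members, 0.01 over all probe sets and -0.23 over the bright ones. Rpl22l1 had the largest difference, -1.32 ± 0.22 (limma adjusted p = 2.67e-04), a signal 2.50 times as high in Mith. Rps27l followed at -0.75 ± 0.19 and Rps20 at -0.74 ± 0.15, then Rpl11 at -0.66 ± 0.10 (limma adjusted p = 1.68e-04) and Rpl7 at -0.65 ± 0.11. In Rpl11 the lowest Mith array, wild-type 6 at 10.77, matched the highest M.C array, R6/2 2, to 2 decimals.

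The cohort difference depended on the scaling and on the probe set. After quantile normalization, which forces the same distribution on every array, 19 members were called, 15 lower and 4 higher in M.C, and the median was -0.14. The shares of all probe sets given here come from the fit without quantile normalization, so these counts have no background beside them. Without quantile normalization, Rpl12 was the 1 member called higher in M.C (0.24 ± 0.05, limma adjusted p = 0.00125, against 15.3% of all probe sets called higher). Its probe set had a mean of 7.02, and a brighter probe set that lists Rpl12 among several symbols (mean 10.99) was called lower (-0.46, limma adjusted p = 0.00429). Markers of other cell types moved between the cohorts too. All 8 measured markers of mature oligodendrocytes were called lower in M.C (median -0.82, mean level 9.01 to 9.83 in M.C and 9.74 to 10.4 in Mith), and so were 3 of 4 thalamic markers (median -0.70, mean level 6.87 to 7.24 in M.C and 7.12 to 8.40 in Mith). Their part in the cohort difference of the ribosomal protein genes was not tested.

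The probe sets left aside gave like values. Over both cohorts, the 51 probe sets of the same genes that were not chosen had a median of 0.11, with 48 above 0 and none called by limma. The 101 probe sets that list a ribosomal protein gene among several symbols had a median of 0.08, with 81 above 0 and none called. Their median was -0.04 in M.C, 0.25 in Mith and -0.42 for M.C minus Mith, where 72 of them were called lower in M.C. Of 22 genes with several single-symbol probe sets, 5 had estimates of both signs over both cohorts, Rpl27a, Rpl41, Rps4x, Rps9 and Rps24, and the widest range was that of Rps9 (-0.01 to 0.38). Of the 17 members with a mean of 10 or below, 8 also had a brighter probe set with several symbols, each with a mean above 10. For Rps27 the cohort difference was -0.21 on the chosen probe set (mean 7.76) and -1.03 on the brighter one (mean 11.4). For Rpl39 the genotype difference was 0.10 on the chosen one (mean 7.48) and 0.31 ± 0.16 on the brighter one (limma adjusted p = 0.362), and for Rps6 it was 0.12 and 0.09. For the genotype difference, the dim probe set had the smaller estimate in Rpl12, Rpl14, Rps27 and Rpl39. It had the larger one in Rpl37 (0.21 against 0.12), Rps25 (0.18 against 0.13) and Rps6, and both lay below 0 in Rpl27a. These differences between dim and bright probe sets went both ways and were not tested.

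Few other genes of the translation apparatus were called over both cohorts, where 2.55% of all probe sets were. In lists this short, such a share gives few calls or none. Of the 4 measured ribosome genes outside the symbol rule, Rplp0, Rplp2, Rpsa and Fau, none was called by limma over both cohorts, and their median was -0.01, with -0.12 in M.C and 0.15 in Mith. None of 7 measured elongation genes was called (median -0.01). Eef1b2, a subunit of the factor that reloads Eef1a with GTP, gave 0.23 ± 0.11, from -0.05 in M.C and 0.61 in Mith, while Eef1a1, which brings aminoacyl-tRNA to the ribosome, gave -0.01 ± 0.07. None of 33 initiation genes was called (median -0.02, with -0.07 in M.C and 0.07 in Mith), and none of 12 genes of the S6 kinases and the mTOR pathway (median -0.05).

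Calls were made in the lists of ribosome assembly and of mitochondrial ribosomes. Of 33 measured biogenesis genes 1 was called, Fbl, the methyltransferase of nucleolar box C/D particles, which rose by 0.24 ± 0.06 (limma adjusted p = 0.0350). The list's median was 0.03. Of 74 mitochondrial ribosomal protein genes 2 rose in R6/2, Mrpl39 by 0.35 ± 0.06 and Mrpl57 by 0.26 ± 0.06 (limma adjusted p = 0.00495 and 0.0243), and 61 estimates lay above 0 with a median of 0.07. Over all probe sets 0.362% were called higher and 2.19% lower. In these 3 genes the M.C and Mith estimates had the same sign, 0.18 and 0.33 for Fbl, 0.31 and 0.39 for Mrpl39, and 0.20 and 0.34 for Mrpl57. Whether they differ from the cytosolic ribosomal protein genes in this was not tested. The 74 mitochondrial ribosomal protein genes had a median of 0.0080 in M.C, with 38 above 0, and 0.15 in Mith, with 67 above 0. For M.C minus Mith their median was -0.11. There 25 were called lower and 4 higher, against 17% and 15.3% of all probe sets. A higher Mith estimate was thus not particular to the cytosolic ribosomal protein genes.

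**Figure D5:**
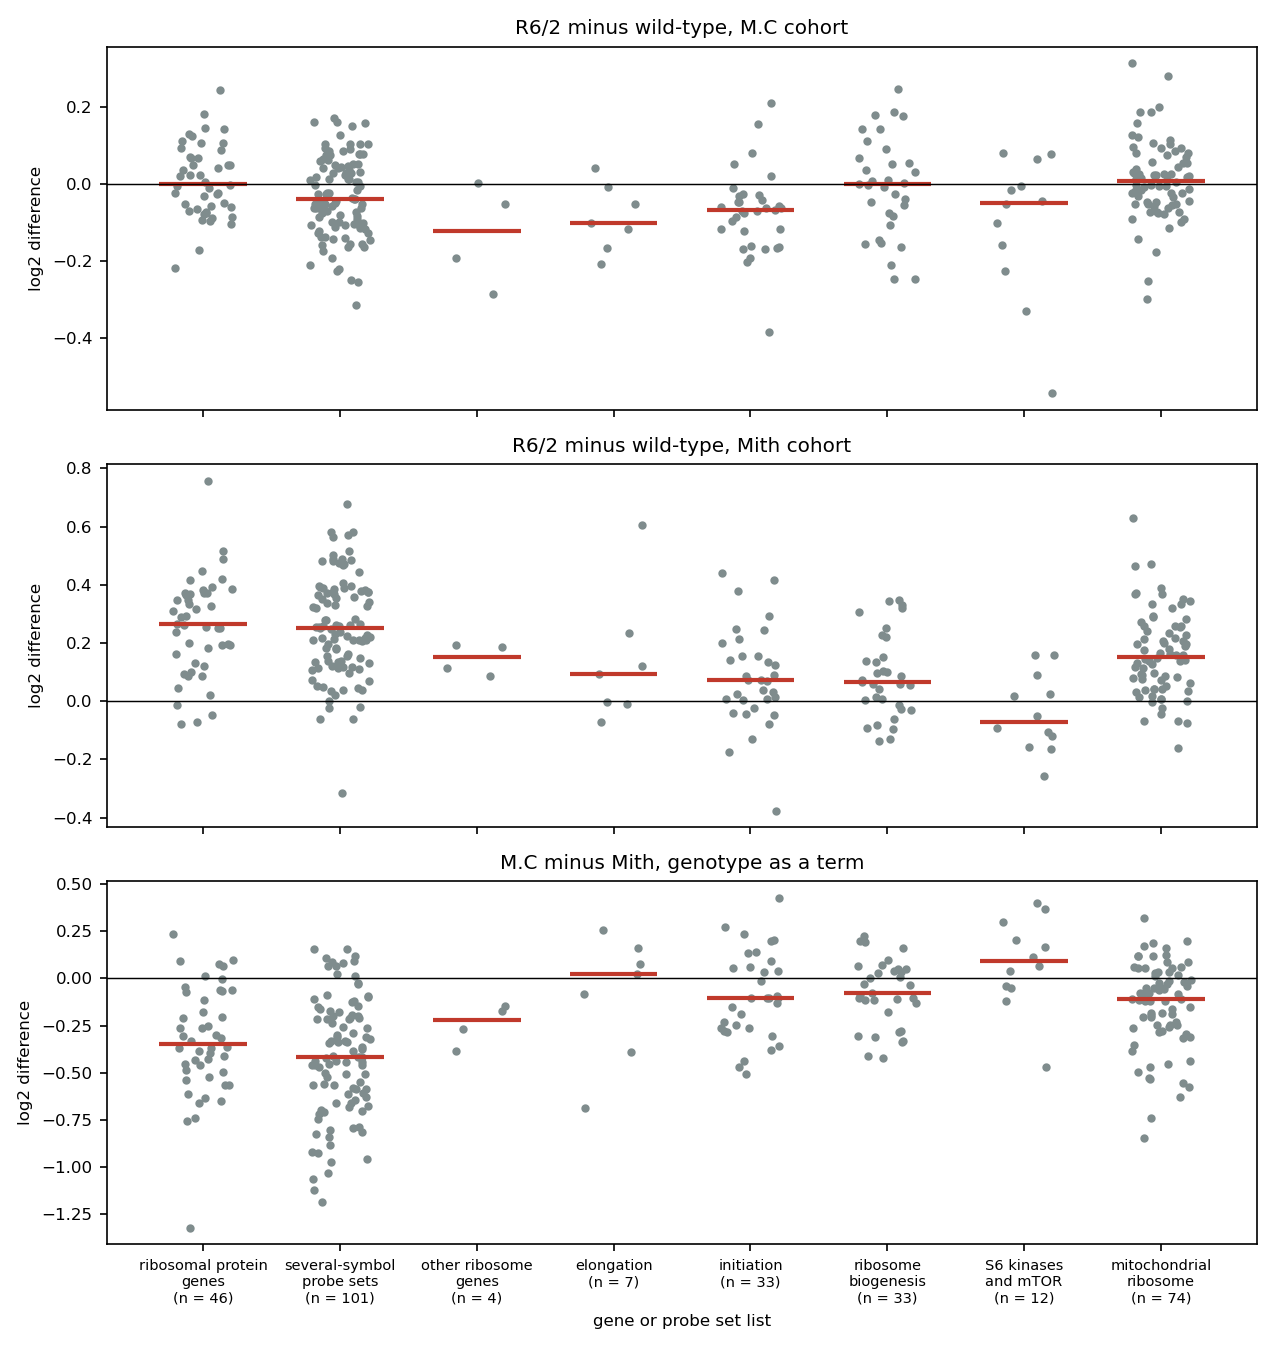
Log2 differences of the 46 ribosomal protein genes and of other lists of the translation apparatus (grey points, 1 per gene or probe set, with the list's median as a red line): R6/2 minus wild-type in M.C (top) and Mith (middle), and M.C minus Mith (bottom). The ribosomal protein genes and the several-symbol probe sets have Mith medians of 0.26 and 0.25, and M.C minus Mith medians of -0.35 and -0.42. Those of the mitochondrial ribosome list are 0.15 and -0.11.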

How the data were processed

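The authors deposited a series matrix of log2 probe set signals (14 arrays, 22690 probe sets), a unit taken from the range of the values, 2.96 to 14.5. The summary method and normalization are not given in the sources used here. Control probe sets (64) were not tested. Because array medians spanned 0.108, more than 0.1, all arrays were shifted to one median. Gene symbols came from the platform table, and 20380 probe sets carried 1 symbol, 691 several and 1555 none.

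Differences were tested with limma 3.58.1 in R 4.3.3 (lmFit and eBayes, two-sided), with Benjamini-Hochberg adjustment over 22626 probe sets and a call at an adjusted p under 0.05. The terms were genotype and cohort, genotype within each cohort, or both and their product. Tested on simulated data of that size for R6/2 against wild-type over both cohorts, the fit recovered 26.9%, 80.6% and 100% of changes of 0.25, 0.5 and 1 on the log2 scale, with 8 false calls among 146. The changed probe sets were drawn from all probe sets, with noise independent between them. The members had wider standard errors (median 0.107 against 0.0662), so these rates do not stand for them.

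The members, the gene lists and the tests were chosen with earlier results of these data known, and the list of 79 ribosome genes and the signal limit of 10 after the files had been seen. Named members are those called (up to 8 each way), the 6 largest estimates each way over both cohorts, the 3 largest each way within each cohort, the 4 largest cohort differences, up to 4 called in the interaction, fixed paralog pairs, and Rps6, Rpl5, Rpl11, Rps27a, Rps3, Rps19, Rpl10a and Rps25. Other members, and Eef1a1 and Eef1b2, were named after their values had been seen. Figures were drawn with matplotlib 3.10.9 in Python 3.11.15. The most alike pair of arrays had a Spearman correlation of 0.995, and no pair shared its values. Alternatives were no cohort term, deposited values, quantile normalization, the brighter probe sets, trended or robust prior variances, array weights, an Actb or Gapdh covariate, other probe sets per gene, thresholds of 0.01 and 0.1, and each array left out in turn.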

Additional observations from a re-analysis of the deposited data

Results flagged for a closer look

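Array wild-type 5 stood far above the other 6 wild-type arrays in 8 of the 58 groups of 7 arrays looked at (28 named members and the mean of the members, in each genotype). Chance gives about 1 in 20 such groups where all 7 values come from 1 normal distribution. These 8 groups share the array and are not independent. In log2 signal it was at 11.6 for Rpl19 (the next wild-type array at 11.3), 9.89 for Rpl37 (next 9.03), 9.99 for Rpl22 (next 8.88) and 10.8 for Rps19 (next 10.3). It was at 8.94 for Rps27l (next 7.79), 8.03 for Rps27 (next 7.76) and 8.09 for Rpl39 (next 7.40). The mean of the 46 members was 10.1 in this array and 9.71 in the next. The 7 wild-type arrays pool both cohorts, and wild-type 5 belongs to Mith, where the members were higher, so the rate of 1 in 20 does not apply to these groups.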

How the results depend on the processing

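Over both cohorts the members called stayed at 0 under 12 of 13 alternatives and with each array left out; with array weights 1 was called, Rps25 (0.25 ± 0.06, limma adjusted p = 0.0215, where the other alternatives gave it an adjusted p of at least 0.0604). The number of estimates above 0 fell from 41 to 23 with the Actb covariate and was 39 to 43 with 1 array left out, where the median ran from 0.06 to 0.17. In M.C 0 to 1 members were called with 1 array left out, and the 1 was Rps25 without R6/2 4, while the M.C median was -0.06 to 0.07 then and 0.10 after quantile normalization. In Mith none was called and the median was 0.15 to 0.44 with 1 array left out. Between cohorts quantile normalization gave 19 members called and a median of -0.14, and leaving out 1 array gave 23 to 34 called and -0.42 to -0.28. The shares of all probe sets called in these fits are not given here. For the named members over both cohorts, 692 of 693 results kept their side of the threshold, the exception being Rps25 with array weights; their results within cohorts were not counted there. The cause of these changes was not tested. The alternatives on sign counts, on medians within and between cohorts and on several-symbol probe sets were chosen after seeing the data. No paired analysis was possible because the arrays of the genotypes share no number in their titles within a cohort. Probe sets with signals near the array's floor limit what can be said of Rpl39l, Rpl3l and Rps15a-ps6.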
